A study of Mus musculus with 54 samples.

Results

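The cytosolic translation initiation and elongation factors were read in mouse liver as every gene of the deposited table whose name begins with Eif1 to Eif6 or with Eef1 or Eef2. Names marked as pseudogenes, of which there were 9, were left out. The rule gave 73 genes of the 20162 rows in the table and used no measured value. The mice were male wild-type C57BL/6J, fed a high-fat diet in every group, controls included, and single-housed. The diet began at 8 weeks of age. For 20 weeks the mice took diisononyl phthalate (DINP), a plasticiser, in gelatin pellets at 1.5 (n = 13), 15 (n = 13) or 150 mg/kg bw/d (n = 14), while control mice (n = 14) took placebo pellets. RNA of the medial liver lobe was sequenced from the 3′ end. Each of the 54 samples was taken to be 1 liver, and the question was how each dose changed these transcripts against control. No value bears on how DINP would act in mice on another diet.

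Translation of an mRNA starts when eIF2 brings the initiator tRNA to the small ribosomal subunit, with eIF1, eIF1A, eIF3 and eIF5, while eIF4E, eIF4G and eIF4A recruit the capped end of the mRNA. eEF1A then delivers each aminoacyl-tRNA and eEF2 moves the ribosome along. Many mRNAs of this machinery carry a 5′ terminal oligopyrimidine (TOP) run, a C followed by more C and T bases at the transcription start, through which mTORC1 controls their translation; in liver the same machinery is known to respond to feeding and amino acids.

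Values are TPM that the authors rounded and divided by a size factor for each liver (scaled TPM); they are not reads, so the depth behind each value is unknown. Of the 73 genes, 64 had a mean of at least 1 and were tested. The 9 others were Eef1a2, the muscle and neuron form of eEF1A, Eef1akmt3, Eif4a3l1 and 6 copies of Eif1ad (Eif1ad9, Eif1ad10, Eif1ad11, Eif1ad12, Eif1ad14 and Eif1ad16), at 0 in at least 11 livers of each group. Differences are given as log2 fold change (log2FC) of value + 1 from 1 limma model over all livers, and a gene was called where p adjusted over all 11431 tested rows was under 0.05. A fold on this scale understates the change of a low gene.

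The livers did not fall together within their groups. On the first principal component over all tested rows, which held 13.75% of the variance, 8 livers scored 25.4 to 52.9 while the other 46 lay between -24.9 and 8.18. Of these 8 livers, 6 were dosed at 15 mg/kg bw/d (replicates 4 to 9 of its labels), 1 was a control (replicate 1), 1 was dosed at 150 mg/kg bw/d (replicate 10) and 0 at 1.5 mg/kg bw/d. Their values summed to 849928 to 1076440 a liver, against 747258 to 1037170 in the others, with 12095 to 13553 rows above 0 against 12338 to 14221. The 6 hepatocyte markers summed to 29740 to 50807 in the 8 and to 23613 to 49461 in the others, and the 5 endothelial markers to 53.2 to 79.6 and 63.2 to 95.5. Macrophage, erythroid and stress-gene sums overlapped widely, and the 4 adipocyte markers had means under 1. What set the 8 livers apart was not tested. In bulk tissue, fewer cells of a type and less RNA per cell cannot be told apart. Each result is given with all 54 livers and, where it changed, with the 46 only, a setting chosen after the data were seen.

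A few windows around annotated starts show which letters were searched for the TOP run. They were read from RefSeq promoters of GRCm38.p6, 15 bases on either side of the start and 5′ to 3′ on the gene's strand, for elongation factor Eef1a1, for 3 eIF3 subunits, for Eif4h and for the X- and Y-linked copies of eIF2γ. Capitals mark a C followed by at least 4 C or T bases that begins within 5 bases of the start.
Eef1a1, chr9:78481710-78481739, minus strand: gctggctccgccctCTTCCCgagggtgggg
Eif3f, chr7:108934400-108934429, plus strand: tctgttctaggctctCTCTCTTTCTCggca
Eif3l, chr15:79075208-79075237, plus strand: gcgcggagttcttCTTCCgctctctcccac
Eif2s3x, chrX:94212637-94212666, minus strand: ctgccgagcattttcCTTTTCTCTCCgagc
Eif2s3y, chrY:1010580-1010609, plus strand: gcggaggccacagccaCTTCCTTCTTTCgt
Eif3m, chr2:105017013-105017042, minus strand: ttttccggtcggcgtgtttctggatcggag
Eif4h, chr5:134639395-134639424, minus strand: gtgcgacttgcgatcaggcagcgcggcgga
Eef1a1, Eif3f, Eif3l and both eIF2γ copies held such a run, and Eif3m and Eif4h had none in these letters. Of the 5 factors known as TOP mRNAs that had a start, only Eef1a1 and Eif3f held such a run. Eef2, Eef1b2 and Eif4b did not, so a missing run at these starts does not show that an mRNA is not a TOP mRNA. Nor does a run show that its letters are the TOP run of the mRNA, in Eef1a1 or in any other. Whether transcription begins at these annotated starts was not tested. A start was found for 52 of the 73 genes, and 15 of them (28.8%) held a run at 1 start or more. Among all 11904 genes of the table with a start the share was 24.0%, and among all 32851 starts 18.3%.

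In control liver, mean levels ran from 1.51 scaled TPM for Eef2k, the kinase of eEF2, up to Eef1a1. Eef1a1, the GTPase that brings aminoacyl-tRNA to the ribosome, was the most abundant at 916 ± 124 scaled TPM (SD, n = 14). Eef1b2, a subunit of the eEF1A exchange factor, followed at 228 ± 28.7, then Eif5a, which relieves stalled ribosomes, at 227 ± 55.1, and Eif1, which guards start codon choice, at 217 ± 50.7. The spread of these 3 overlapped, so that their order is not resolved. Eif6, which keeps the large subunit from joining early, stood at 190 ± 28.7, Eef2 at 185 ± 18.8 and Eif2s2 (eIF2β) at 179 ± 15.0. The scaffold Eif4g1 had 162 ± 20.4, the eIF4E-binding repressor Eif4ebp2 118 ± 22.6 and Eif3c, of the eIF3 core, 116 ± 11.2.

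Other factors had lower levels. Eif2ak1, the heme-regulated eIF2α kinase, was the highest of the 4 eIF2α kinases at 11.3 ± 1.91, and Eif2b2 led the 5 subunits of eIF2B, the exchange factor of eIF2, at 35.4 ± 7.06. The RNA helicase Eif4a2 had 58.8 ± 9.23 and eIF2α itself, Eif2s1, 9.71 ± 1.09. The mRNA cap-binding protein Eif4e stood at 25.4 ± 3.78 and its repressor Eif4ebp1 at 31.5 ± 5.29. Eef1akmt4 led the enzymes that modify elongation factors at 7.17 ± 1.95. Among control livers the coefficient of variation had a median of 14.5% over the 56 factors with a mean of at least 5, against 18.5% over the 6932 rows at that level. These levels are normalised by transcript length, although reads of 3′ libraries do not grow with length, so levels of different genes are only roughly comparable.

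**Figure D1:**
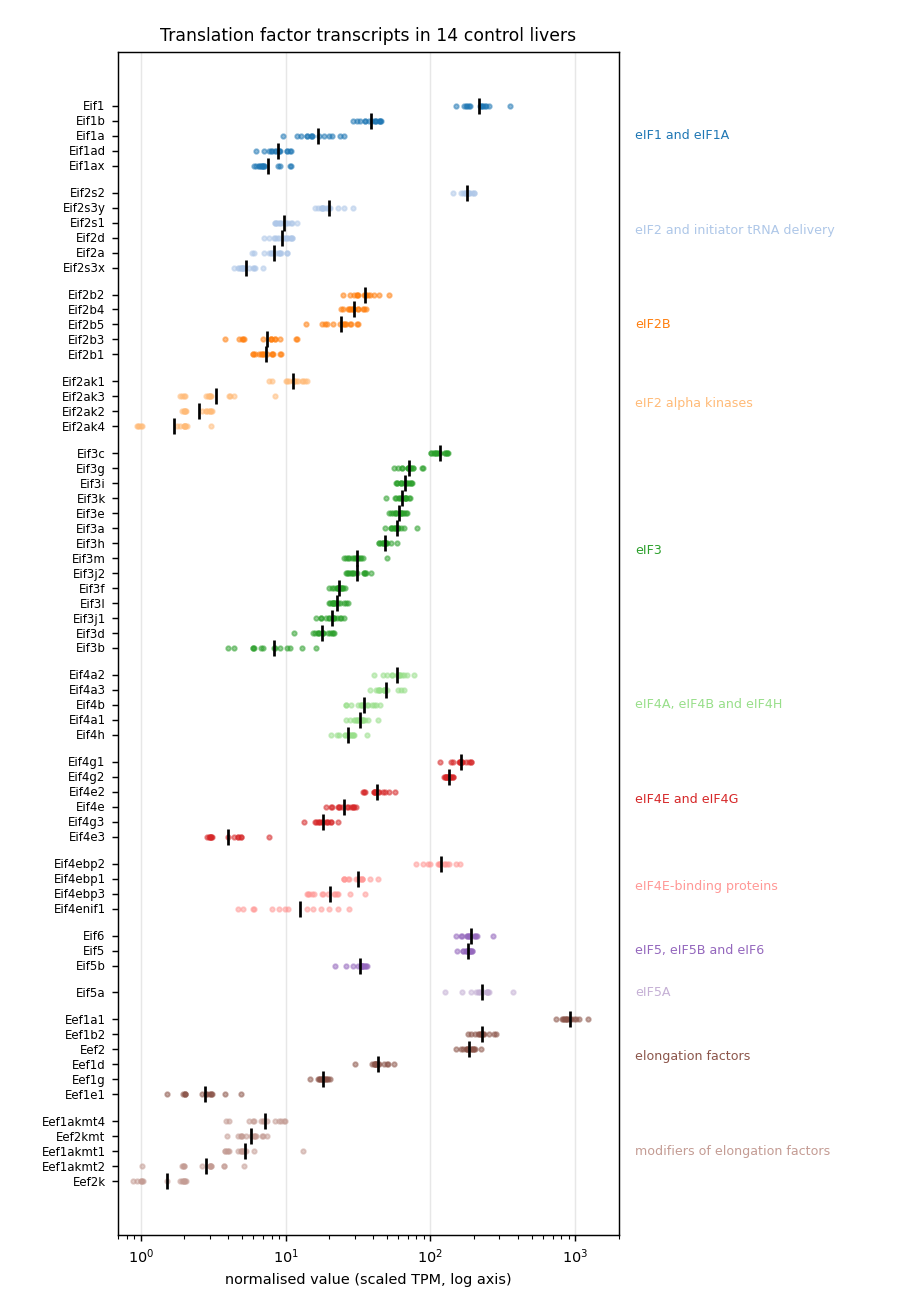
Scaled TPM (log axis) of the 64 tested translation factors in the 14 control livers, by role; each dot is 1 liver and each black bar the mean. Eef1a1 has the highest mean, 916, and Eef2k and the eIF2α kinases Eif2ak2, Eif2ak3 and Eif2ak4 are among the lowest.

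At 1.5 mg/kg bw/d the translation factors were close to control: 1 of 64 was called higher and 0 lower, beside 0.674% and 0.525% of all rows. Eif3h, a subunit of eIF3, had 44.2, 48.6 and 58.6 scaled TPM as lowest, median and highest in control and 51.2, 55.6 and 69.7 at 1.5 mg/kg bw/d. All 13 dosed livers lay above the control median, though the groups overlapped. The gene rose by 0.25 ± 0.07 (log2FC ± SE, adjusted p = 0.0426), a change of 18.9%. The call was lost in 18 of 27 fits that each left out 1 liver, where the adjusted p ranged up to 0.0886, and the log2FC was 0.25 in the 46 livers as well (adjusted p = 0.0110). It was also lost with a replicate block, without a filter on low values, with equal sums for every liver and with the GC trend removed. Over all 64 factors, 33 had a log2FC above 0 and the median was 0.00, as over all rows. In the 46 livers 2 were higher and 1 lower, beside 1.30% and 1.22% of all rows. The fall was that of Eif3j2, a copy of the loosely bound eIF3 subunit, named after its values were seen (log2FC -0.25, adjusted p = 0.0261, against -0.23 and 0.181 with all livers). Eif3j1, the other copy, had a log2FC of -0.21 in the 46 livers and was not called. How reads split between Eif3j1 and Eif3j2 was not tested.

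At 15 mg/kg bw/d 11 of the 64 factors rose and 3 fell, beside 7.57% of all rows called higher and 6.61% lower. The 11 were 6 eIF3 subunits (Eif3m, Eif3e, Eif3c, Eif3i, Eif3h and Eif3l), the initiator tRNA factors Eif2s3y and Eif2a, the helicase cofactor Eif4h, and the elongation factors Eef1a1 and Eef1g. Those that fell were Eef2, Eif4e and Eif4g2. Of the 64, 41 had a log2FC above 0 (64.1%, against 49.8% of all rows), with a median of 0.06 against 0.00. Over the 46 livers 36 of 64 lay above 0, with a median of 0.05. In these livers, which leave 7 at this dose and 13 controls, 5 rose and 2 fell, beside 2.76% and 2.55% of all rows. With every liver scaled to an equal sum, 6 rose and 3 fell. All rows then split into 565 higher and 942 lower, against 865 and 756 with the values as deposited. All 14 genes kept their direction without the 8 livers, and 5 of them were called in both fits: Eif3m, Eif3c, Eif3h and Eif2a upwards and Eif4g2 downwards.

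**Figure D2:**
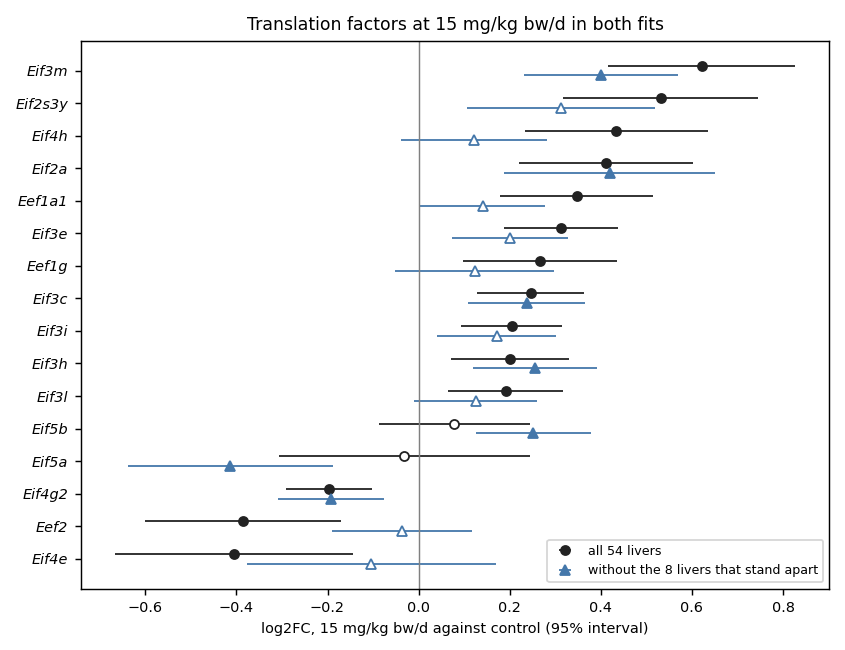
The log2FC at 15 mg/kg bw/d against control with its 95% interval, for each factor called in either fit; circles use all 54 livers, triangles the 46 that remain without the 8 livers that stand apart, and filled symbols are called. Eif3m is filled in both fits, while Eef2 moves from -0.39 to -0.04.

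Eif3m showed the largest rise among these factors over all 54 livers, while in the 46 that of Eif2a was as large. Eif3m encodes an eIF3 subunit and lies on chromosome 2 (104999656 to 105017080, GRCm38). Lowest, median and highest values were 25.2, 30.6 and 49.9 scaled TPM in control, 21.5, 31.3 and 36.0 at 1.5, 35.2, 43.8 and 70.8 at 15, and 26.5, 33.7 and 53.4 at 150 mg/kg bw/d. All 13 livers at 15 lay above the control median, and the highest control and the highest liver at 150 were those named above as standing apart. The rise was 0.62 ± 0.10 (adjusted p = 3.6e-05), 53.9% on this scale. Without the 8 livers it was 0.40 ± 0.09 (adjusted p = 0.00345), with 25.2 to 34.5 in 13 controls and 35.2 to 43.8 in 7 livers at 15. The control left out held 49.9, so with it the groups overlap. The 8 livers were picked by a component on which the loading of Eif3m lay at percentile 96.1 of all rows. How many other rows separate in the 46 livers was not computed. Part of its last exons is shared with Ccdc73 on the other strand over 82 bases. The libraries keep the strand, but whether the counting used it is not given in the sources used here.

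Eif3c, Eif3h and Eif2a rose in both fits. Eif3c had 101, 113 and 132 scaled TPM in control and 119, 133 and 168 at 15 mg/kg bw/d, and all 13 livers passed the control median. Its rise was 0.25 ± 0.06 (adjusted p = 0.00311), and 0.24 ± 0.07 in the 46 livers (adjusted p = 0.0229). Eif3h had 43.8, 54.5 and 74.4 at 15, and rose by 0.20 ± 0.07 (adjusted p = 0.0311) with all livers and by 0.26 ± 0.07 (adjusted p = 0.0200) without the 8. Eif2a, a factor apart from eIF2 that can deliver initiator tRNA without GTP, had 5.86, 8.40 and 10.3 in control and 7.04, 10.9 and 17.1 at 15. It rose by 0.41 ± 0.10 (adjusted p = 0.00271), and by 0.42 ± 0.12 in the 46 livers (adjusted p = 0.0253). With an equal sum for every liver the adjusted p was 0.0113 for Eif2a, but 0.0699 for Eif3c and 0.157 for Eif3h. The call of Eif3h was also lost with quantile normalisation, with only the 2 groups compared, with the Wilcoxon test and in 4 of 27 fits that left out 1 liver.

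Eif4g2 (DAP5), which drives translation without the cap-binding protein, moved the other way, and had the lowest coefficient of variation of the 56 factors in control, 4.71%. It had 124, 134 and 144 scaled TPM in control, 114, 131 and 149.7 at 1.5, 99.6, 117 and 139.8 at 15, and 122, 139 and 159 at 150 mg/kg bw/d. In 12 of 13 livers at 15 it lay below the control median. The fall was -0.20 ± 0.05 (adjusted p = 0.00326) and -0.19 ± 0.06 in the 46 livers (adjusted p = 0.0433).

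The other 9 calls at 15 mg/kg bw/d were lost without the livers that stand apart. Eef1a1 had 737, 883 and 1231 scaled TPM in control and 847, 1135 and 1664 at 15, and the 6 such livers of that group held 1204 to 1664. Its log2FC was 0.35 ± 0.09 (adjusted p = 0.00374) over all livers and 0.14 ± 0.07 (adjusted p = 0.256) over the 46. Eif4h, the cofactor of eIF4A, had 20.6, 27.3 and 36.4 in control and 23.8, 32.1 and 56.4 at 15, with 44.8 to 56.4 in the same 6 livers, and its log2FC went from 0.43 ± 0.10 (adjusted p = 0.00243) to 0.12 ± 0.08 (adjusted p = 0.431). Eef2, the translocase, had 151, 187 and 224 in control and 80.0, 167 and 199 at 15, and fell by 0.39 on the log2 scale (SE 0.11, adjusted p = 0.0122). The 6 livers held 80.0 to 147, below each of the 7 others, and without the 8 livers the log2FC was -0.04 ± 0.08 (adjusted p = 0.844). Eif4e had 19.1, 25.6 and 30.6 in control and 11.0, 16.3 and 37.1 at 15, with a log2FC of -0.40 ± 0.13 (adjusted p = 0.0319) and -0.10 ± 0.14 (adjusted p = 0.734). For Eif3e, Eif3i, Eif3l and Eef1g the log2FC of 0.31, 0.20, 0.19 and 0.27 became 0.20, 0.17, 0.13 and 0.12, with no adjusted p under 0.0601. The 8 livers were picked by a component to which these genes contribute. On it Eef1a1 and Eif4h loaded at percentiles 92.23 and 94.39 of all rows, and Eef2 and Eif4e at 7.61 and 9.53. Eif2s3y lay close to Eif3m, while Eif3e, Eif3i, Eif3l and Eef1g lay at 60.63 to 82.28. How far the loss of these 9 calls, or the place of the 6 livers, follows from that choice was not tested.

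Eif2s3y and Eif2s3x are the Y- and X-linked copies of eIF2γ, the subunit that holds the initiator tRNA. Eif2s3y had 15.9, 18.6 and 29.1 scaled TPM in control, 13.4, 18.6 and 26.2 at 1.5, 17.4, 27.8 and 43.1 at 15, and 13.6, 17.6 and 28.7 at 150 mg/kg bw/d. At 15 it was 0.53 ± 0.11 higher (adjusted p = 0.000564), with 12 of 13 livers above the control median, and 0.31 ± 0.11 higher in the 46 livers (adjusted p = 0.0698). Eif2s3x, named as its pair after the values were seen, was lower in level at 5.35 ± 0.71 in control and had a log2FC of -0.21 ± 0.09 (adjusted p = 0.123). Both starts carry a pyrimidine run. The copies are close in sequence, so that the split of reads between them is uncertain.

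**Figure D3:**
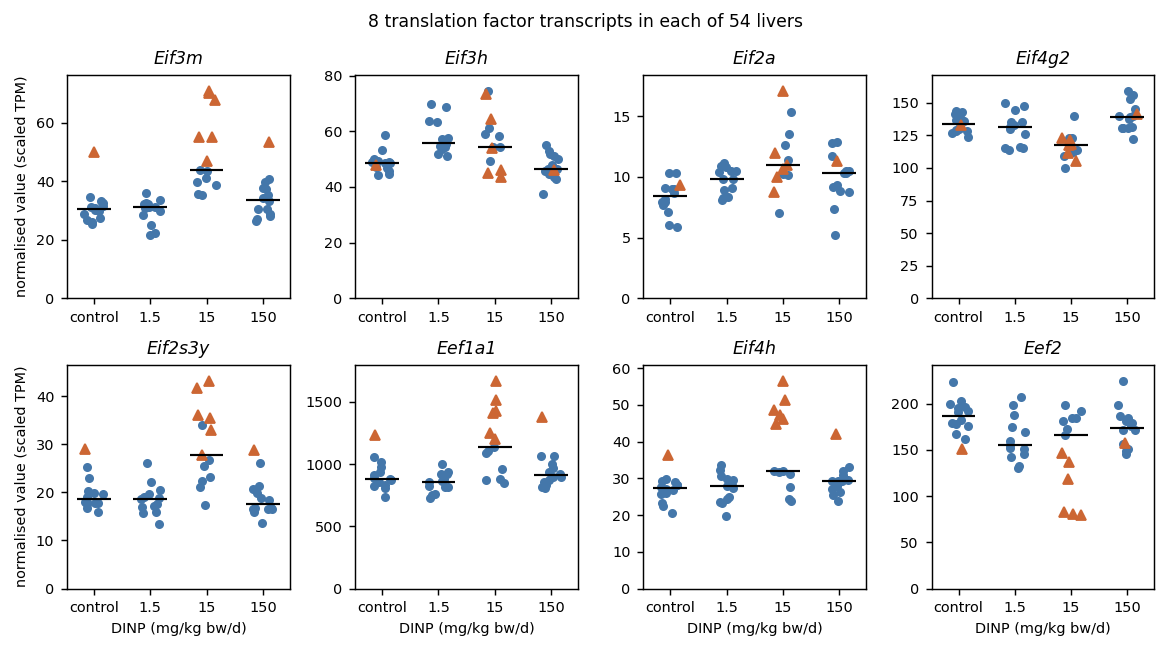
Scaled TPM of 8 translation factors in each of the 54 livers by dose; orange triangles are the 8 livers that stand apart on the first component and lines are group medians. In Eif4h and Eef2 the triangles at 15 mg/kg bw/d lie beyond all other livers of that group. Eif3m held 35.2 to 43.8 in the 7 other livers at 15 and 25.2 to 49.9 in all 14 controls, so the groups overlap. The triangles were picked by a component on which Eif3m, Eif4h and Eef2 loaded at percentiles 96.1, 94.4 and 7.61 of all rows. How many rows separate in this way was not computed.

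Without the 8 livers, Eif5a and Eif5b passed the test at 15 mg/kg bw/d, which they did not with all livers. Eif5a had 126.9, 226 and 373 scaled TPM in control and 133, 196 and 357 at 15, with a log2FC of -0.03 ± 0.14 (adjusted p = 0.918) over all livers. In the 46 livers it was 133 to 196 at 15 against 126.9 to 253 in control, a log2FC of -0.41 (adjusted p = 0.0234). Eif5b, the GTPase of subunit joining, had log2FCs of 0.08 (adjusted p = 0.591) and 0.25 (adjusted p = 0.0120). Eif5b was named after its values were seen.

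Of the 14 eIF3 genes, in which Eif3j1 and Eif3j2 are copies of 1 subunit, 6 rose and 0 fell at 15 mg/kg bw/d with all livers. Without the 8 livers 3 of these 14 genes rose. All rows were 7.57% higher and 6.61% lower in the first case and 2.76% and 2.55% in the second. The median log2FC of the 14 eIF3 genes was 0.09 with all livers, against 0.00 over all rows, and it was -0.03 at 1.5 and 0.00 at 150 mg/kg bw/d. Of 6 elongation factors 2 rose and 1 fell, of 6 genes of eIF2 and initiator tRNA delivery 2 rose, of 5 eIF4A, eIF4B and eIF4H genes 1 rose, and of 6 eIF4E and eIF4G genes 2 fell. None was called among the 5 eIF2B subunits, the 4 eIF2α kinases or the 4 eIF4E-binding proteins. The 9 members known as TOP mRNAs (Eef1a1, Eef1b2, Eef1d, Eef1g, Eef2, Eif3e, Eif3f, Eif3h and Eif4b) had 4 calls up and 1 down at 15, and 1 up in the 46 livers, with medians of 0.18 and 0.12. By the letters of their starts, 3 of 14 tested members with a pyrimidine run rose at 15 and 0 fell, and of 36 without one 4 rose and 2 fell, beside 7.57% and 6.61% of all rows. This split does not follow the known list, since Eef2, Eef1b2 and Eif4b fall among those without a run. Across genes, the log2FC at 15 had an r of -0.16 with the GC content of the last 500 transcript bases over 10979 rows and of -0.19 over the 64 factors; genes share libraries and are not replicates.

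**Figure D4:**
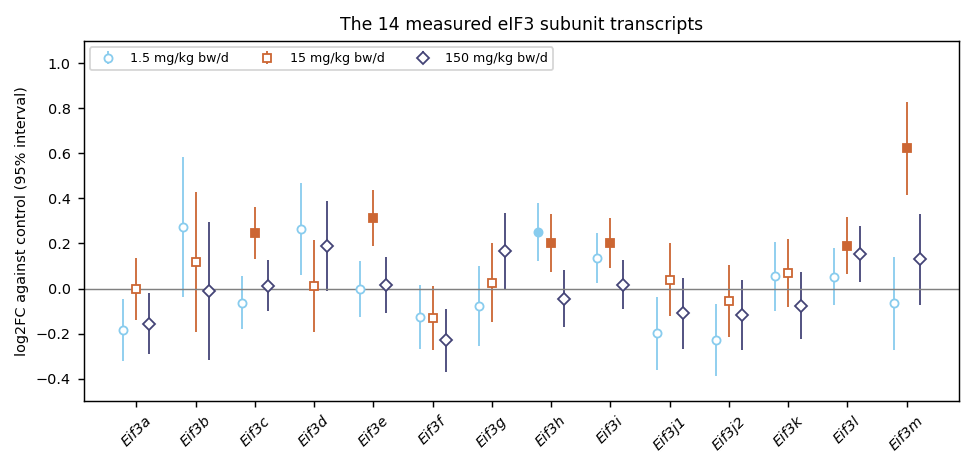
The log2FC against control with its 95% interval for each of the 14 measured eIF3 subunits at the 3 doses over all 54 livers; filled symbols are called. The 6 filled squares belong to Eif3c, Eif3e, Eif3h, Eif3i, Eif3l and Eif3m at 15 mg/kg bw/d.

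At 150 mg/kg bw/d 1 of 64 factors rose and 0 fell, beside 1.49% and 0.682% of all rows. Eif1ax, the X-linked copy of eIF1A, which helps the scanning ribosome find the start codon, had 6.02, 6.98 and 10.9 scaled TPM in control, 6.26, 7.11 and 18.2 at 1.5, 6.81, 8.77 and 12.3 at 15, and 6.32, 12.9 and 16.6 at 150. In 12 of 14 livers at 150 it lay above the control median. The rise was 0.52 ± 0.13 (adjusted p = 0.0192), 43.6%, and 0.53 ± 0.14 without the 8 livers (adjusted p = 0.0230). Its call was lost with an equal sum for every liver and with a Wilcoxon test, where the adjusted p reached 0.0684. Eif1a, the copy on chromosome 18, was named as the pair of Eif1ax after the values were seen. The median of Eif1a was 15.2 scaled TPM in control and 13.8 at 150. Its log2FC at 150 was -0.18 with all livers and -0.16 in the 46, not called in either. How reads split between Eif1ax and Eif1a was not tested, so a rise of eIF1A transcripts as a whole is not shown. Equal sums gave 0 higher and 2 lower at this dose, and all rows then split into 82 higher and 266 lower, against 170 and 78. In the 46 livers 2 were higher and 1 lower, beside 2.33% and 1.29% of all rows. The fall was that of Eif3f, an eIF3 subunit known as a TOP mRNA and named after its values were seen (log2FC -0.25, adjusted p = 0.0449, against -0.23 and 0.0729 with all livers). Eef1a1 had a log2FC of 0.05, Eef2 of -0.10, Eif4e of -0.28, Eif2s1 of -0.03, Eif4ebp1 of -0.05 and Eif6 of 0.18, with adjusted p of 0.323 or more. The factors that rose at 15 showed 150 mg/kg bw/d log2FCs of -0.15 to 0.22, none called.

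Eif4ebp3, the third of the repressors that hold eIF4E off eIF4G, was singled out after its values were seen, since it lay just outside the threshold at all 3 doses. Lowest, median and highest values were 14.1, 18.9 and 35.3 scaled TPM in control, 16.2, 28.3 and 45.6 at 1.5, 17.5, 25.6 and 37.8 at 15, and 20.7, 27.3 and 43.9 at 150 mg/kg bw/d. All 14 livers at 150 lay above the control median, as did 10 of 13 at 1.5 and 11 of 13 at 15. The log2FCs were 0.52, 0.37 and 0.48 with adjusted p of 0.0599, 0.0833 and 0.0600, and the 3 comparisons share their controls. In the 46 livers those at 1.5 and 150 passed, at 0.56 (adjusted p = 0.0285) and 0.51 (adjusted p = 0.0429). It shares 327 bases of exon with a neighbour on the same strand, which the counting may split.

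The doses also differed from each other. Between 15 and 150 mg/kg bw/d 17 of 64 factors differed, 14 higher and 3 lower at 15, beside 20.0% of all rows (10.1% higher and 9.85% lower). Without the 8 livers it was 14, 9 higher and 5 lower, beside 3.98% and 4.36% of all rows, and 7 of them were among the 17. Eif3m (0.49, adjusted p = 0.000512), Eif2s3y (0.60, adjusted p = 7.2e-05), Eif3c (0.23), Eif3h (0.25) and Eef1g (0.42) were higher at 15 and stayed called in the 46 livers. Eif4g2 (-0.26, adjusted p = 8.9e-05) and Eif4ebp2 (-0.41, adjusted p = 0.00467) were lower and stayed called. Eif6 was also lower at 15 than at 150 (log2FC -0.29, adjusted p = 0.0166), and -0.23 without the 8 livers (adjusted p = 0.139). Between 1.5 and 15, 14 factors differed, 11 of them higher at 15 and 3 lower, beside 21.4% of all rows (10.9% and 10.5%). Without the 8 livers 10 differed, 8 of them higher at 15 and 2 lower, beside 2.69% and 2.36% of all rows, and 5 were among the 14. Between 1.5 and 150, 5 differed, 3 higher at 1.5 and 2 lower, beside 4.61% (2.06% and 2.55%), with Eif4a2 lower at 1.5 (-0.38, adjusted p = 0.00920) and Eif3h higher (0.29, adjusted p = 0.00426). These 5 were among the 6 that differed without the 8 livers, beside 3.05% of all rows higher and 3.83% lower at 1.5.

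Few of these changes were large. With a log2FC beyond 0.5 required as well, Eif3m and Eif2s3y remained at 15 and Eif1ax at 150 mg/kg bw/d. All rows then had 1.85% higher and 1.86% lower at 15, 0.647% and 0.192% at 150, and 0.201% and 0.166% at 1.5. Between 1.5 and 15 these were Eif3m and Eif2s3y, beside 7.15% of all rows, and between 15 and 150 Eif2s3y and Eef1e1 (0.60, named after its values were seen), beside 6.73%. Between 1.5 and 150 it was 0, beside 1.64%. Without the 8 livers only Eif1ax, at 0.53, was still called beyond 0.5 among these: Eif3m had 0.40 and Eif2s3y 0.31 at 15 against control, -0.41 and -0.36 at 1.5 against 15, and between 15 and 150 Eif2s3y had 0.38 and Eef1e1 0.32 (adjusted p = 0.271). The call of Eef1e1 was also lost with the Wilcoxon test.

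Among the 46 livers that did not stand apart, several factors varied with Eef1a1 from mouse to mouse once group means were removed. Over 63 comparisons, 10 correlated above 0 and 3 below 0 at an adjusted permutation p under 0.05 (100000 permutations within groups). The share of all rows that would pass this test was not computed, so these counts stand without a background. The genes were named by their r, after it was seen. Eif4b, the cofactor of eIF4A and itself a TOP mRNA, was highest with Pearson's r = 0.66 and Spearman's rho = 0.67 (p = 1e-05, the smallest the permutations can give, adjusted p = 0.00063 for both). Its r lay between 0.50 and 0.79 within the 4 groups and was 0.63 without the 2 livers farthest from the median of Eef1a1. Eif4h had r = 0.59 and rho = 0.61 (permutation p = 8e-05 and 6e-05, adjusted p = 0.00252 and 0.00189), with 0.35 to 0.84 within groups and 0.56 without the 2 livers.

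Eif4g1 and Eif4g3, of the 3 eIF4G genes, and Eif6 (r = -0.42) correlated below 0, while Eif4g2 had r = 0.17. Eif4g3 had r = -0.50 and rho = -0.50 (permutation p = 0.00033 and 0.00057, adjusted p = 0.00693 and 0.00756), with -0.68 to -0.17 within groups and -0.45 without the 2 livers. Eif4g1 had r = -0.43 and rho = -0.42 (permutation p = 0.004 and 0.00626, adjusted p = 0.0252 and 0.033), with -0.64 to 0.03 within groups and -0.36 without them. Of the 63 factors, 3.17% had an r of at least 0.5, against 1.47% of the 11430 tested rows besides Eef1a1, which include the 63 factors. An r of at most -0.5 was seen in 1 factor and in 0.71% of these 11430 rows. All values of a liver share 1 library and 1 scaling, and Eef1a1 had an r of 0.19 with the sum of values. In the 8 livers that stand apart, which were permuted across dose groups because 2 of these hold 1 liver each, 0 of 63 correlations passed in an exact permutation test. Eif3e was highest by Pearson's r there, with r = 0.89 and rho = 0.79 (exact p = 0.00327 and 0.0279, adjusted p = 0.103 and 0.628, n = 8), and r = 0.92 without the 2 farthest.

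**Figure D5:**
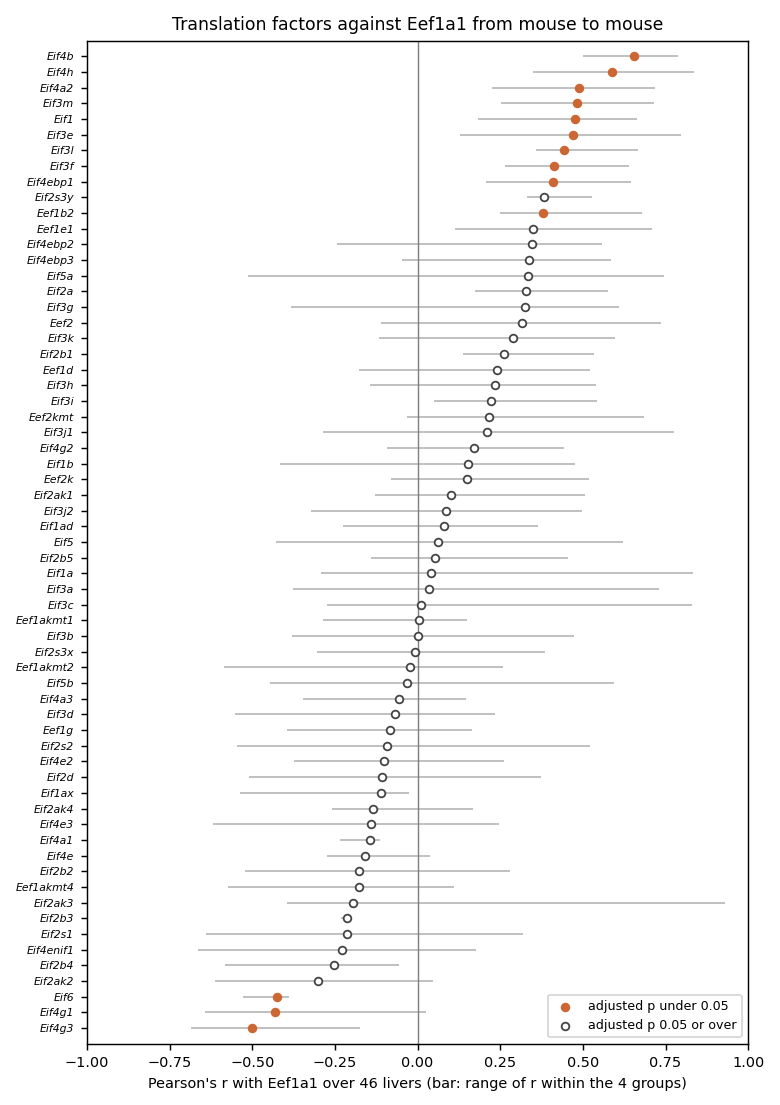
Pearson's r of each of 63 translation factors with Eef1a1 over 46 livers (points, filled where the adjusted permutation p is under 0.05) and the range of r within the 4 groups (bars). Eif4b stands at 0.66 and Eif4g3 at -0.50, and for most factors the bar spans 0.

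Other genes of the pathway were called in part at 15 mg/kg bw/d, where 7.57% of all rows were higher and 6.61% lower, and most of these calls were lost without the 8 livers. Of the 7 tested reinitiation, release and recycling factors 2 rose, Abce1 (0.41), which splits ribosomes after termination, and Mcts2 (0.64). Of the 11 mTORC1 and MNK genes, Rheb, the activator of mTORC1, had 0.36 and Mlst8, an mTOR partner, -0.54. Of the 6 regulators of eIF2α phosphorylation, Nck1 fell (-0.37), and of the 6 hypusine and diphthamide enzymes Dph5 rose (0.45). Mtrf1, a mitochondrial release factor, rose (0.54) among 9 mitochondrial factors, and 0 of 5 poly(A)-binding proteins and partners was called. These 7 genes were not called in the 46 livers, where the log2FC was 0.31 for Abce1, 0.29 for Mcts2, -0.01 for Rheb, -0.37 for Mlst8, -0.29 for Nck1, 0.38 for Dph5 and 0.39 for Mtrf1, so that Rheb alone of them changed sign. Mcts1 (0.40) and Pdcd4 (0.44), an inhibitor of eIF4A, were called there instead, and are named after their values were seen.

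Of 11 tested ATF4 targets, Atf5 (-0.81, adjusted p = 0.0105) and Ddit4 (-0.70, adjusted p = 0.00700) fell at 15 with all livers and not in the 46, where they had -0.26 and -0.50. Shmt2, of serine metabolism, rose at 1.5 (0.29, adjusted p = 0.0426) and 150 mg/kg bw/d (0.26, adjusted p = 0.0486), as it did in the 46 livers. Nck1 also fell at 1.5 (-0.45, adjusted p = 0.0107), and again in the 46 livers (-0.45). Of 40 listed aminoacyl-tRNA synthetases and partners 22 were tested, and 4 rose and 2 fell at 15, among them Mars1 (0.43) upwards and Aimp1, a scaffold of the multisynthetase complex, downwards (-0.60). In the 46 livers 4 rose, Mars1 (0.47) among them, and 0 fell, beside 2.76% of all rows higher and 2.55% lower. Among marker genes at 15, Ttr (hepatocyte) rose by 0.42, and Csf1r (macrophage, -0.60) and Pecam1 (endothelial, -0.52) fell; in the 46 livers none was called, at 0.23, -0.45 and -0.28. Each was the only called marker of its list: the 6 hepatocyte markers ran from -0.13 to 0.42, the 6 macrophage markers from -0.60 to 0.10 and the 5 endothelial markers from -0.52 to -0.03. Their part in the factors' values was not tested. At 1.5 mg/kg bw/d the nuclear RNA Malat1 fell (-0.53, adjusted p = 0.0178), and again in the 46 livers (-0.49).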

How the data were processed

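The authors aligned 3′ QuantSeq libraries to GRCm38 with STAR, RSEM and Salmon and deposited 1 table with a normalised value per gene and liver. These deposited values behave as a signal and not as reads: within each liver every value is a whole multiple of 1 step (0.764 to 1.11, tolerance 0.01), and the whole numbers sum to 948342 to 980641, as rounded TPM divided by a size factor do. Depth is thus unknown and no count model was used. All 54 columns were used and none was left over.

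Rows with a mean of at least 1 (11431 of 20162) were fitted on log2(value + 1) with limma 3.58.1 (R 4.3.3), 1 mean per group, a mean-variance trend and Benjamini-Hochberg adjustment. Intervals are 95%. Nothing in the labels says more of the replicates than that each is 1 sample of its group. The model was run on simulated data, with noise drawn separately for each gene and liver. Such data hold no livers that stand apart, so the run does not bear on how those affect the calls. No 2 livers had identical values (highest correlation 0.97). Named were factors called against control (up to 10 per dose and direction), the most abundant factor of each role, 7 fixed genes and up to 3 called genes of each other list; exceptions are marked in the text, and 1 gene is not reported here. The members and lists were chosen with earlier results of these data known. Gene positions are from GENCODE M21 (GRCm38) and promoters from RefSeq.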

Additional observations from a re-analysis of the deposited data

How the results depend on the processing

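None of the 52 calls of factors in the 6 comparisons changed direction under an alternative; factors that were not called could, as Eef1b2 did at 15 (0.18 with all livers and -0.09 without the 8). Counts of factors called are given as higher and lower against control. At 1.5 mg/kg bw/d (1 and 0) the count higher was 0 without a filter on low values, with equal sums for every liver, with the replicate block, with the GC trend removed and with a log2FC beyond 0.5, and 2 with a mean of at least 5. Array quality weights gave 3 and 2, and leaving out the 8 livers that stand apart 2 and 1. At 15 mg/kg bw/d (11 and 3) the count higher was 6 with equal sums, 6 with the Wilcoxon test, 5 without the 8 livers and 2 beyond 0.5, and the count lower 1 with only the 2 groups fitted, 1 with array weights, 1 with the Wilcoxon test and 0 beyond 0.5. At 150 mg/kg bw/d (1 and 0) the count higher was 2 with a mean of at least 5, with only the 2 groups, with array weights and without the 8 livers, and 0 with equal sums and with the Wilcoxon test. The count lower was 1 after quantile normalisation, with only the 2 groups and without the 8 livers, and 2 with equal sums and with array weights. Between 1.5 and 15 (14) it was 9 with only these groups, 5 with the Wilcoxon test and 2 beyond 0.5. Between 1.5 and 150 (5) it was 3 without a filter, 8 with equal sums, 2 with the Wilcoxon test and 0 beyond 0.5. Between 15 and 150 (17) it was 8 with the Wilcoxon test and 2 beyond 0.5. Counts over all rows moved as well: at 15 from 865 and 756 to 391 and 288 with the Wilcoxon test and to 316 and 291 without the 8 livers, and at 1.5 from 77 and 60 to 169 and 128 with array weights. The cause of these shifts was not tested. Pseudocounts of 0.1 and 5 moved no count by over 1.5 times.

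Leaving out 1 liver at a time gave 0 to 2 higher and 0 lower at 1.5, 8 to 12 and 2 to 3 at 15, 1 to 2 and 0 to 1 at 150, and 10 to 16, 2 to 7 and 14 to 19 between doses. The lowest of the 2 to 7 was without replicate 3 at 1.5 mg/kg bw/d. Of the calls of single genes, recomputed under each alternative, 544 stayed past the threshold and 127 did not. The 79 pairs of livers with equal replicate numbers had a mean r of -0.00250 (-0.359 to 0.243). Since each mouse took 1 dose, such pairs are different animals whatever their r. A mean r cannot show whether some pairs shared handling. The replicate block gave 0 and 0, 10 and 3, and 1 and 0 against control, and 13, 7 and 17 between doses. The GC trend, the 3 livers with a low sum and the 8 livers were alternatives chosen after seeing the data.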
